A study of Mus musculus with 9 samples.

Results

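The genes described here are 38 mouse genes of glucose breakdown and of the response to low oxygen, picked by symbol from the 54134 distinct entries of a count table. All 38 were found: 3 transporters of glucose or lactate, 19 glycolytic enzymes, 3 regulators of glycolytic or pyruvate flux, the hypoxia factor Hif1a and 12 hypoxia targets. Of these, 37 passed a filter on low counts and were tested, and Egln3 did not. The filter needs only 1 group to be high, so a count over tested members is not a count over all of them. The study sequenced messenger RNA of wild-type cells labelled HT22, a neuronal line from mouse hippocampus, although the cell type label of the same samples reads HT-4. There were 3 groups with 3 libraries each. Control cells were left untreated, Hb cells received oxyhemoglobin, the oxygen-carrying pigment freed from red cells after a bleed, and Hb+NTR1 cells received oxyhemoglobin together with an agent that the labels write as NTR1 and the series title as NGR1. All groups grew in the same serum-containing medium under 5% CO2, and no group received the agent without oxyhemoglobin, so its effect in otherwise untreated cells was not measured. The labels name no difference in oxygen supply between the groups.

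Glycolysis splits glucose into pyruvate in the cytosol, and lactate dehydrogenase turns pyruvate into lactate when mitochondria do not take it up. Neurons in culture use both glucose and lactate, and most steps have several isozymes that differ between tissues. When oxygen is short, prolyl hydroxylases of the EGLN family stop marking HIF-1 alpha for destruction, and HIF-1 then binds DNA elements with the core ACGTG or GCGTG in genes of glycolysis, blood vessel growth, mitophagy and pH control. HIF-1 alpha is controlled mainly as a protein, so the messenger level of Hif1a is not a measure of HIF activity.

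Levels are CPM, the counts of a gene scaled to a common library size with TMM factors, given for replicates 1 to 3 in that order or as mean ± SD (n = 3 libraries), and log2 fold changes carry their standard error. A gene is called higher or lower when edgeR's quasi-likelihood test gave a Benjamini-Hochberg adjusted p under 0.05 over the 13810 genes tested. Library totals ran from 13415648 to 16893746 counts, so that 0 counts allow up to 0.178 to 0.224 CPM, for counting error only. Separate cultures are not stated for the libraries within a group, so p-values measure only how far these samples spread, and that spread may be technical. Hb replicate 2 stood apart from its group: chi-square per degree of freedom over genes was 12.05 and 10.05 against the other Hb libraries, beside 2.47 to 4.83 for the other pairs within groups. Calls that change without it are named beside the genes. Of 15 neuronal markers 11 were under 1 CPM in control, and Map2 and Snap25 were at 0 in all 9 libraries. The labelled cell type is thus not borne out by most of these markers. The others, Dlg4, Tubb3, Syn1 and Camk2a, were at 68.5, 31.8, 24.1 and 3.57 CPM in control. From Hb to Hb+NTR1 Dlg4 went from 70.8 to 32.7 CPM, Tubb3 from 36.8 to 5.36 and Camk2a from 3.46 to 0.806. Syn1 went from 25.4 to 20.4 CPM, and Slc17a7 rose from 0.146 to 1.02 CPM. Summed neuronal markers ran from 124 to 131 CPM in control, 133 to 142 CPM in Hb and 58.1 to 63.0 in Hb+NTR1 by library totals. The 10 fibroblast markers ran from 13617 to 14558, 11220.4 to 12838 and 1309.6 to 1433 CPM, and 2 of them, Fap and Lum, were under 1 CPM in control. Most of that sum came from Col1a2, Col1a1 and Col3a1, at means of 8875, 3535 and 1509 CPM in control and 962, 250 and 72.4 CPM in Hb+NTR1. Pdgfra was at 78.9 CPM in Hb and 66.2 CPM in Hb+NTR1. The sums of 6 astrocyte and 5 microglia markers each came almost wholly from 1 gene, Slc1a3 at a mean of 206, 123 and 7.20 CPM and Tmem119 at 20.1, 13.4 and 3.397 CPM in control, Hb and Hb+NTR1. The other 5 and 4 markers were under 1 CPM in control, with Aqp4 and P2ry12 at 0 in all libraries, and the means of Gfap (0.253, 0.238 and 0.899 CPM) and Aif1 (0.0894, 0.172 and 0.59 CPM) were highest in Hb+NTR1. The neuronal and fibroblast sums, Slc1a3 and Tmem119 moved with the Hb+NTR1 group, as did the share of mitochondrially encoded counts, at 5.01% ± 0.245 (SD, n = 3) in control, 4.38% ± 0.22 for Hb and 6.42% ± 0.228 for Hb+NTR1. Their part in the results below was not tested. In such bulk samples fewer cells of a type and less RNA per cell cannot be told apart.

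The question of the Hb+NTR1 against Hb comparison is what the added agent changed in oxyhemoglobin-treated cells, and glycolytic enzymes and hypoxia targets differed in their counts of calls there. Of 19 glycolytic enzymes 12 were lower and 2 higher, with a median log2 fold change of -0.26, while of 11 tested hypoxia targets 4 were lower and 5 higher, with a median of -0.011. The comparison as a whole had 62.3% of tested genes called, 30.7% higher and 31.6% lower, at a median of -0.011, so a call by itself was common. The lower share of glycolytic enzymes, 12 of 19, stood above that background and the lower share of hypoxia targets, 4 of 11, close to it. The higher share was below the background for glycolytic enzymes, 2 of 19, and above it for hypoxia targets, 5 of 11. In either direction 73.7% of glycolytic enzymes and 81.8% of hypoxia targets were called. No test of the difference between both classes was made. Over all 37 tested members 9 were higher and 17 lower. In Hb against control only 2 members were called, both glycolytic enzymes that were higher, where 3.65% of all genes were called, 1.88% higher and 1.77% lower. The glycolytic median was 0.14 and the hypoxia target median 0.08 there, beside 0 for all genes.

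Summed over the 19 glycolytic enzymes, the level was 4698, 4772 and 4732 CPM in control, 4987, 5424 and 4853 CPM in Hb and 3353, 3631 and 3544 in Hb+NTR1. The Hb+NTR1 libraries lay below the other 6 and every Hb library exceeded every control library. Pkm and Ldha made up 53.3% of that sum in control and 47.7% in Hb+NTR1. Without these genes the other 17 enzymes summed to 2212 ± 30.6 CPM in control, 2456 ± 122 CPM in Hb, and 1835 ± 71.3 CPM in Hb+NTR1 (SD, n = 3). The 12 hypoxia targets summed to 519, 519 and 528 CPM in control, 536, 549 and 567 CPM in Hb and 584, 607 and 609 in Hb+NTR1. The higher sum in Hb+NTR1 rested on Kdm3a. Without Kdm3a the other 11 targets summed to 424, 432 and 437 CPM in control, 444, 461 and 459 CPM in Hb and 407, 441 and 435 CPM in Hb+NTR1. The direction against Hb then turned, with every Hb+NTR1 library below every Hb library, and the Hb+NTR1 and control libraries overlapped. Leaving out any other single target kept the Hb+NTR1 sums above all Hb sums. The 3 transporters summed to 297 ± 3.57, 293 ± 15.99 and 421 ± 20.5 CPM (SD, n = 3), listed for control, Hb and Hb+NTR1. Without Slc2a1 the transporter difference between Hb+NTR1 and Hb went from 128 to 49.8 CPM, with no overlap of the libraries.

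**Figure D1:**
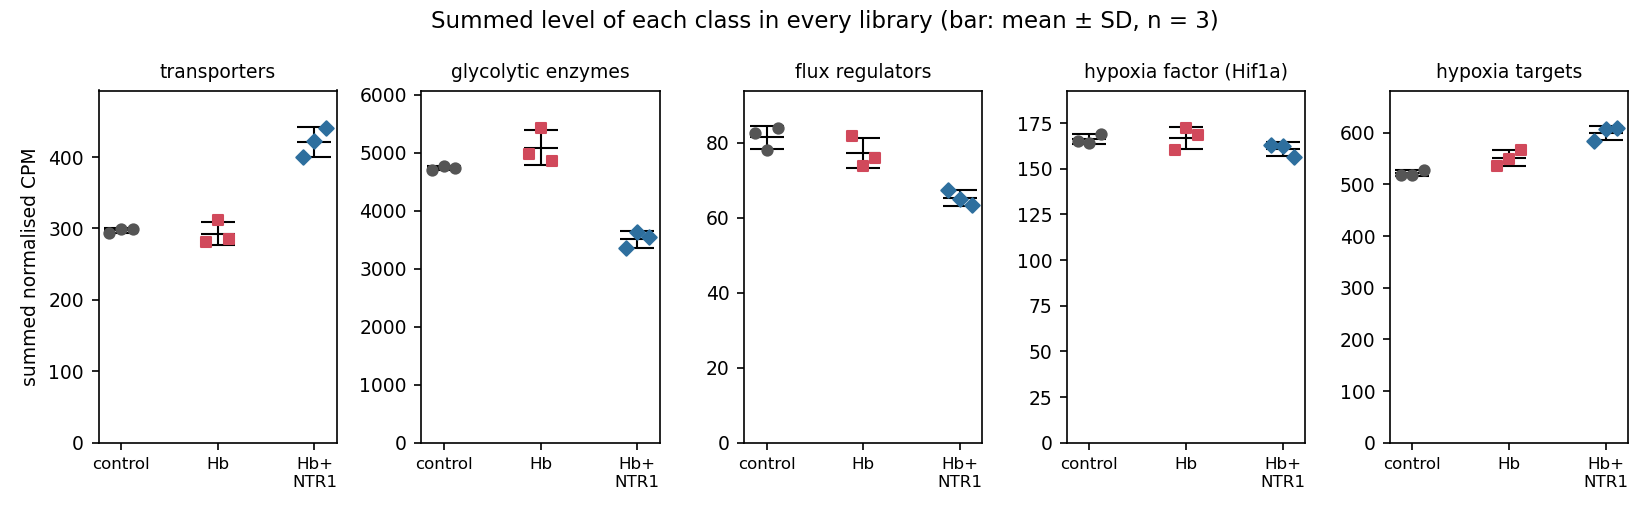
Summed normalised CPM of each class (y axis, from 0, a separate scale per panel) in the 3 libraries of control, Hb and Hb+NTR1, with mean ± SD. The glycolytic sum was lowest in Hb+NTR1, at 3509 ± 142 CPM. The transporter sum was highest there, and the hypoxia target sum was highest there only with Kdm3a, without which it was 427 ± 18.2 CPM against 455 ± 9.08 CPM in Hb.

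Of the 3 glucose and lactate transporters 2 were higher with the added agent. Slc2a1, which encodes the glucose importer GLUT1, had 131, 130.1 and 120.4 CPM in control, 143, 148 and 131 CPM in Hb and 196, 220.3 and 240.3 CPM in Hb+NTR1. The 3 Hb+NTR1 libraries lay above all others, 1.56-fold above Hb (log2 fold change 0.64 ± 0.0724, edgeR adjusted p = 5.51e-08). Slc16a1, which encodes the lactate and pyruvate carrier MCT1, had 161, 168 and 178 CPM in control, 138, 162 and 154 CPM in Hb and 201, 201 and 199 CPM in Hb+NTR1, again highest in Hb+NTR1 (log2 fold change 0.41 ± 0.0664, edgeR adjusted p = 1.1e-05). In Hb against control Slc16a1 was not called (edgeR adjusted p = 0.227), but without Hb replicate 2 it was lower (adjusted p = 0.0252). Slc16a3, the lactate exporter MCT4, ran from 0.594 to 1.81 CPM over the 9 libraries and was not called in any comparison.

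At the entry to the pathway, Hk1, a hexokinase that traps glucose as its phosphate, had 186, 189.6 and 199 CPM in control, 252, 227 and 234 CPM in Hb and 171, 184 and 190.3 CPM in Hb+NTR1. Its Hb libraries lay above both other groups, 1.24-fold above control (log2 fold change 0.31 ± 0.0636, edgeR adjusted p = 0.0044), and its Hb+NTR1 libraries overlapped control (log2 fold change -0.39 ± 0.0637, edgeR adjusted p = 1.33e-05 against Hb). Hk2, the inducible hexokinase, was 1.20-fold lower in Hb+NTR1 than in Hb, at 50.1 ± 2.001 against 60.1 ± 4.77 CPM (edgeR adjusted p = 0.00693). Gpi1, which converts glucose-6-phosphate to fructose-6-phosphate, had 237 ± 5.60, 266 ± 15.6 and 285 ± 14.4 CPM in control, Hb and Hb+NTR1 (edgeR adjusted p = 0.181 against Hb and 0.00084 against control). Without Hb replicate 2 it was also higher against Hb (adjusted p = 0.0347). Phosphofructokinase, the committed step, was split by isoform. Pfkm had 87.4, 87.4 and 88.4 CPM in control, 85.6, 86.0 and 93.2 CPM in Hb and 55.0, 61.7 and 49.4 CPM in Hb+NTR1, with Hb+NTR1 below every other library (log2 fold change -0.67 ± 0.0773, edgeR adjusted p = 6.63e-08). Pfkp, the platelet isoform, had 62.6, 59.8 and 59.1 CPM in control, 63.2, 53.8 and 61.6 CPM in Hb and 80.5, 76.4 and 86.5 CPM in Hb+NTR1, with Hb+NTR1 above every other library (log2 fold change 0.45 ± 0.0766, edgeR adjusted p = 2.13e-05). Pfkl was 1.15-fold lower in Hb+NTR1 than in Hb (edgeR adjusted p = 0.0242), a call that ended by DESeq2 (adjusted p = 0.0556) and without Hb+NTR1 replicate 1 or 3 (0.15 and 0.0517).

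Aldoa, the aldolase that cleaves fructose-1,6-bisphosphate, had 418, 405 and 392 CPM in control, 476, 540.0 and 449.8 CPM in Hb and 389.8, 428 and 410.4 CPM in Hb+NTR1. It was 1.21-fold higher in Hb than in control (log2 fold change 0.27 ± 0.0679, edgeR adjusted p = 0.0224) and, like Hk1, lower again with the agent, where the libraries overlapped control (log2 fold change -0.26 ± 0.0679, edgeR adjusted p = 0.0022 against Hb). The rise in Hb was not called without control replicate 1, 2 or 3 (adjusted p = 0.06, 0.114 and 0.154). Aldoc, the brain aldolase, had 0.569 ± 0.506 CPM in control and 1.02 ± 0.203 in Hb+NTR1. It was not called, except against control without control replicate 3 (adjusted p = 0.00871).

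From the triose phosphates onward Tpi1, Pgk1, Pgam1, Eno1, Pkm and Ldha were all lower with the agent. Tpi1, which interconverts the triose phosphates, had 439, 461 and 449 CPM in control, 435, 497 and 461 CPM in Hb and 238, 265 and 251 CPM in Hb+NTR1. Hb+NTR1 lay far below the other groups, which overlapped each other (1.85-fold below Hb, log2 fold change -0.89 ± 0.0649, edgeR adjusted p = 3e-11). Pgk1, the ATP-making phosphoglycerate kinase, was at 163 ± 0.161, 188 ± 22.1 and 105 ± 4.72 CPM in control, Hb and Hb+NTR1, 1.79-fold below Hb with the agent (edgeR adjusted p = 6.06e-10). Pgam1, the phosphoglycerate mutase of most tissues, fell 1.39-fold against Hb, from 106 ± 6.79 to 76.6 ± 4.37 CPM (edgeR adjusted p = 6.34e-06). Eno1, the general enolase, fell 1.75-fold, from 261 ± 28.2 to 149 ± 10.3 CPM (edgeR adjusted p = 1.23e-09). Pkm, the pyruvate kinase and the member with the highest level per length, fell 1.36-fold, from 1771 ± 104 to 1307 ± 64.5 CPM (edgeR adjusted p = 3.23e-06).

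Ldha, the lactate dehydrogenase subunit that favours lactate formation, had 828, 814 and 826 CPM in control, 807, 953 and 824 CPM in Hb and 346, 378 and 378 CPM in Hb+NTR1. Its Hb+NTR1 libraries stood well apart from the 6 others, 2.35-fold below Hb (log2 fold change -1.23 ± 0.0685, edgeR adjusted p = 2.02e-13). Ldhb, the subunit of tissues that use lactate, was at 50.4 ± 2.63, 48.3 ± 2.87 and 43.1 ± 3.03 CPM. It was not called against Hb (edgeR adjusted p = 0.0859), except without Hb+NTR1 replicate 2 (0.0487). The gene for glyceraldehyde-3-phosphate dehydrogenase, Gapdh, had only 15.9 ± 2.61 CPM in control and 15.3 ± 1.82 in Hb+NTR1 and was not called, except against Hb without Hb+NTR1 replicate 1 (adjusted p = 0.0435). Of the 50-base words of the Gapdh coding transcripts, 58.4% also occurred in transcripts of other genes of GENCODE M21, 222 in number. How the authors counted reads that fit several genes is not known from the labels, and the level of Gapdh is uncertain for that reason. The same share was 68.0% for Pgk1, 59.1% for Bnip3, 49.5% for Eno1, 41.5% for Pgam1, 24.5% for Gpi1, 24.4% for Bnip3l, 23.7% for Pkm and 21.0% for Ldhb. It was 15.4% for Pfkp, 12.3% for Ndrg1, 11.4% for Ankrd37 and 10.4% for Ldha, under 10% for the other members, and 0% for Pgam2, Eno3 and Kdm3a among them.

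**Figure D2:**
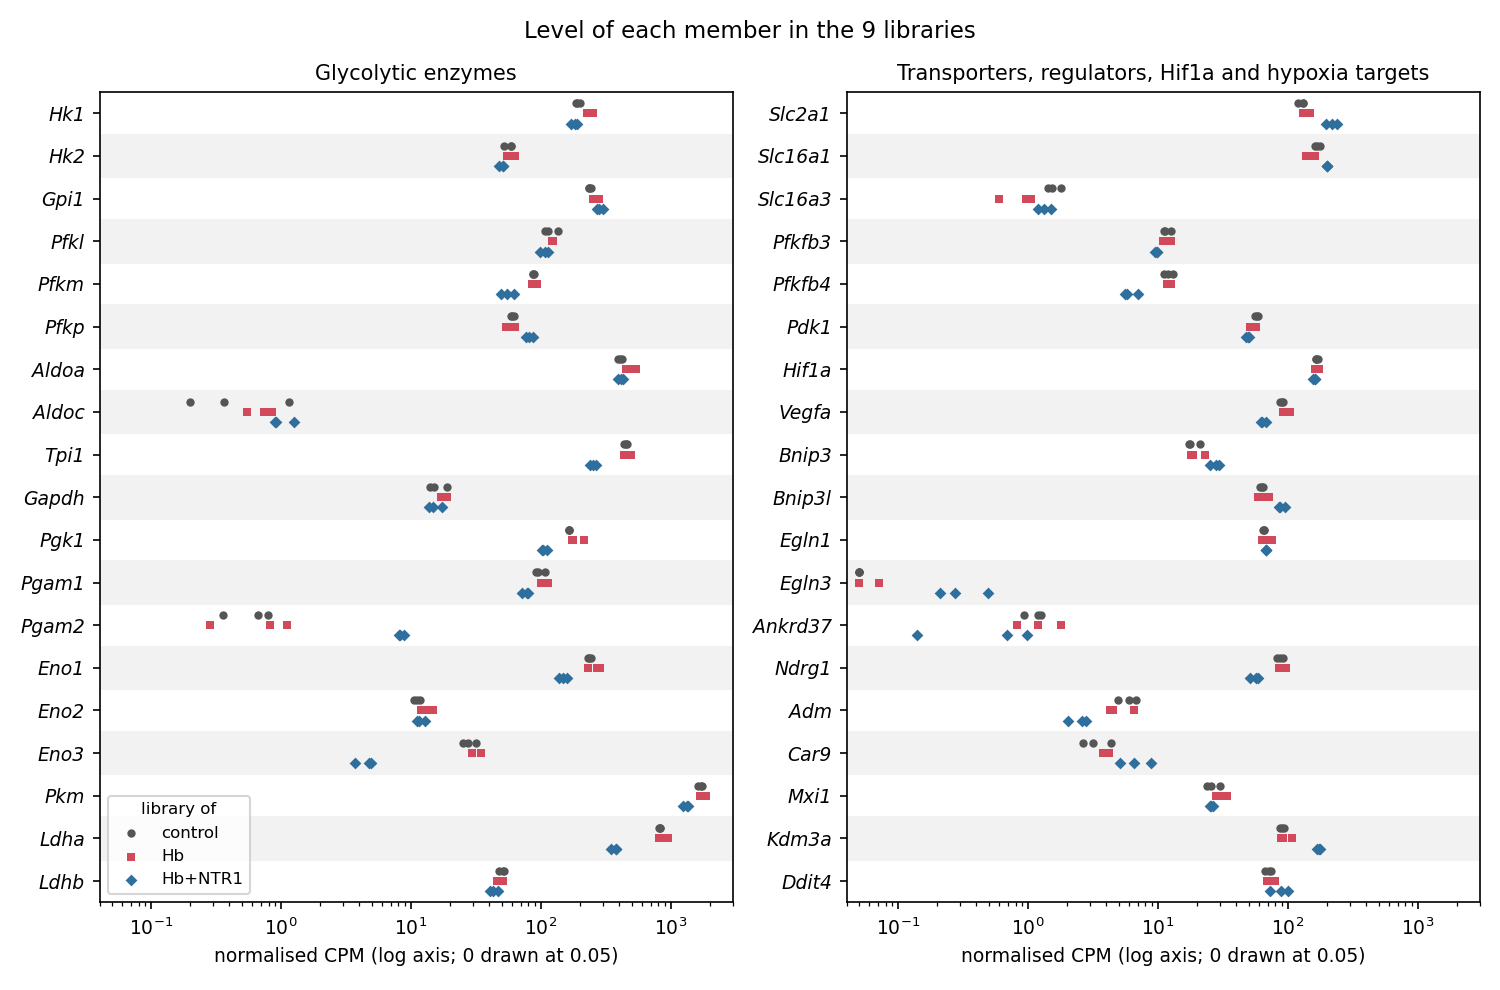
Normalised CPM of each member in every library (x axis, log scale, 0 drawn at 0.05), 1 row a gene, with grey circles for control, red squares for Hb and blue diamonds for Hb+NTR1. Control and Hb points lie together for most genes, and Hb+NTR1 stands apart for Ldha, Tpi1, Pgam2, Eno3, Slc2a1 and Kdm3a.

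The 2 largest changes were in muscle-type isozymes, and they went in opposite directions. Pgam2 (chr11:5801640-5803733, minus strand, GRCm38), the muscle phosphoglycerate mutase, had 0.662, 0.798 and 0.358 CPM in control, 0.283, 0.82 and 1.11 CPM in Hb and 8.91, 8.15 and 8.29 CPM in Hb+NTR1. It was scarce in control and Hb, with 4 to 15 counts a library, and 11.4-fold above Hb with the agent (log2 fold change 3.51 ± 0.297, edgeR adjusted p = 3.79e-10), with 130, 116 and 119 counts in Hb+NTR1. Eno3 (chr11:70657202-70662513, plus strand, GRCm38), the muscle enolase of the next step, had 31.9, 25.2 and 27.6 CPM in control, 29.3, 34.3 and 29.7 CPM in Hb and 4.73, 3.72 and 4.94 CPM in Hb+NTR1. No Hb+NTR1 library came near the others, and the level was 6.95-fold below Hb (log2 fold change -2.80 ± 0.136, edgeR adjusted p = 1.76e-14). Eno2, the neuron-specific enolase, had 11.2 ± 0.582, 13.3 ± 1.51 and 11.9 ± 0.878 CPM and was not called in any comparison. In the authors' deposited table of Hb+NTR1 against control, Pgam2 and Eno3 were the 2 members listed, with log2 fold changes of 3.79 (adjusted p = 4.17e-25) and -2.66 (adjusted p = 1.32e-53).

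Isozyme shares, taken from CPM per kilobase of exon, are given as means over libraries, with no test. The part of 50-base words found in other genes differed between isozymes. It was 41.5% for Pgam1 and 49.5% for Eno1, but 0% for Pgam2 and Eno3. Shares and ranks between genes may therefore depend on how reads that fit several genes were counted, which is not known. Pgam2 held 1.44, 1.999 and 0.878% of both phosphoglycerate mutases in the control libraries, 0.664, 1.68 and 2.41% in the Hb ones and 22.7, 19.4 and 19.9% in Hb+NTR1. Among Eno1, Eno2 and Eno3 the share of Eno3 was 25.9% ± 1.82, 25.9% ± 1.61 and 7.88% ± 1.49 for control, Hb and Hb+NTR1 (SD, n = 3). That of Eno1 was 70.3% ± 1.83, 70.0% ± 1.59 and 84.4% ± 1.86. Eno1b, an entry of its own outside the members, was left out of these shares. Its level was 236 ± 1.32, 243 ± 24.9 and 146 ± 5.86 CPM, beside 237 ± 5.48, 261 ± 28.2 and 149 ± 10.3 CPM for Eno1. Whether the same reads were divided between Eno1 and Eno1b is not known, so Eno1b is not taken as a separate isozyme. If they were, the Eno1 share is too low and the Eno3 share too high. Ldhb made up 11.4% ± 0.58 of the lactate dehydrogenase subunits in control, 10.6% ± 0.466 of those in Hb and 19.9% ± 1.24 in Hb+NTR1, so Ldha remained the larger share throughout. For phosphofructokinase the Pfkm share was 54.1% ± 2.61, 53.6% ± 1.23 and 42.9% ± 2.94, and the Pfkp share 9.29% ± 0.128, 9.01% ± 0.68 and 15.7% ± 1.71. By the longest transcript in place of all exons, Pfkl rather than Pfkm held the largest share in control (45.9% ± 2.89 against 44.0% ± 2.63), a difference within the spread, and the Eno3 share there was 12.98% ± 1.08. Hk1 held 70.3% ± 2.12, 73.5% ± 0.914 and 71.7% ± 0.345 of the hexokinase pair. In control the levels per kilobase were highest for Pkm, at 339.7 ± 12.9 CPM per kilobase, followed by Ldha at 249 ± 2.39, Tpi1 at 163 ± 3.86 and Aldoa at 109 ± 3.398 (SD, n = 3), each step larger than the spread. In Hb+NTR1 Pkm was at 261 ± 12.9, whereas Ldha at 111 ± 5.46 and Aldoa at 110.3 ± 5.13 did not differ beyond their spread. That likeness rests on the length of all exons, 3310 bases for Ldha and 3710 for Aldoa. Before division by length Hb+NTR1 had 367 ± 18.1 CPM of Ldha and 409 ± 19.0 of Aldoa. The longest transcripts have 1815 and 1549 bases, so by these Aldoa ranked above Ldha.

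**Figure D3:**
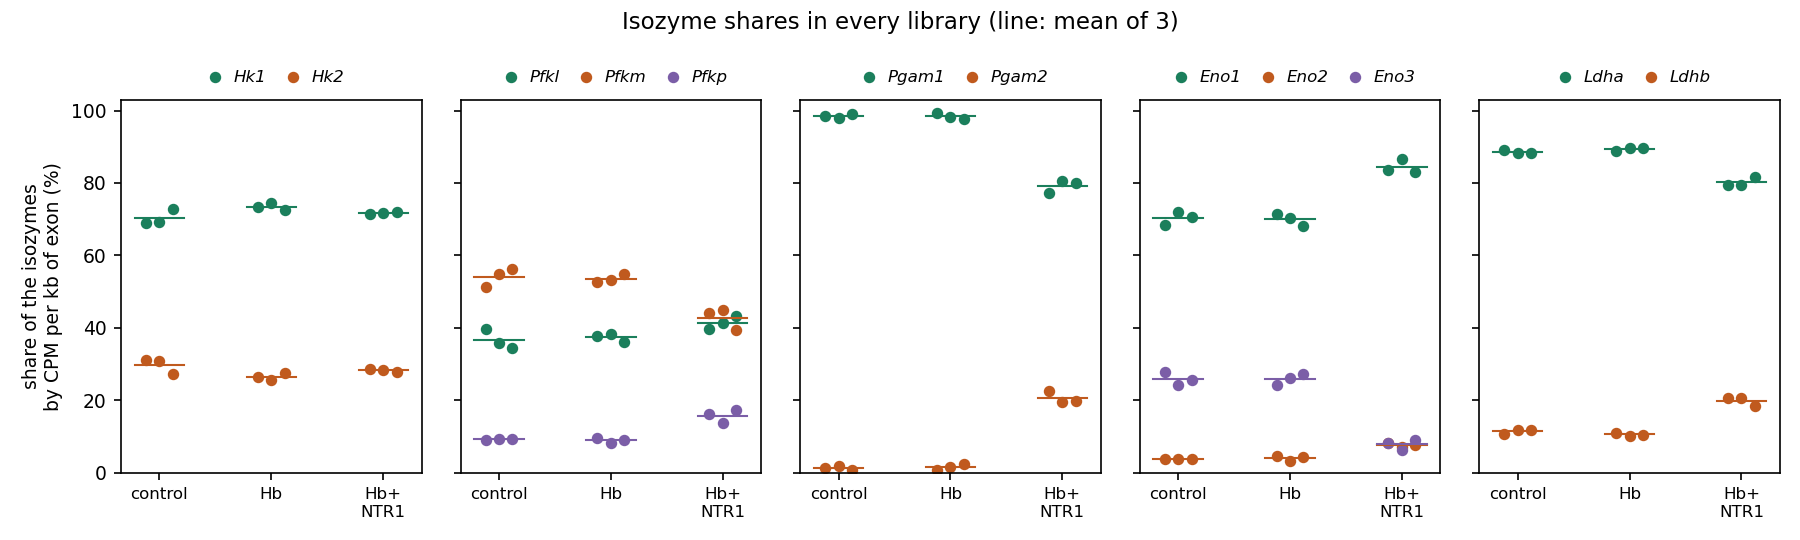
Share of each isozyme among the member isozymes of its step (y axis, percent, by CPM per kilobase of exon) in every library of control, Hb and Hb+NTR1, with a line at the mean. Pgam2 went from 1.58% ± 0.875 in Hb to 20.7% ± 1.76 in Hb+NTR1 and Eno3 from 25.9% ± 1.61 to 7.88% ± 1.49, while the hexokinase shares moved little.

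Of the 3 flux regulators 1 was called in Hb+NTR1 against Hb. Pfkfb4, which makes the allosteric activator fructose-2,6-bisphosphate, had 13.1, 11.2 and 11.96 CPM in control, 12.6, 11.8 and 11.7 CPM in Hb and 7.06, 5.62 and 5.78 CPM in Hb+NTR1, with Hb+NTR1 below the other libraries (log2 fold change -0.97 ± 0.141, edgeR adjusted p = 2.35e-06). Pfkfb3, an enzyme of the same family, was at 11.7 ± 0.752 CPM in Hb and 9.75 ± 0.188 in Hb+NTR1 without a call (edgeR adjusted p = 0.0716). Pdk1, which shuts pyruvate dehydrogenase by phosphorylation, was at 57.7 ± 1.85, 53.5 ± 2.85 and 49.3 ± 1.28 CPM. Pdk1 was not called against Hb (edgeR adjusted p = 0.182) and was lower against control (0.0105), a call that ended with library totals alone (0.063).

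The messenger of the hypoxia factor itself was not called in any comparison. Hif1a had 165, 164 and 169 CPM in control, 161, 172 and 168 CPM in Hb and 163, 163 and 156 CPM in Hb+NTR1. The Hb libraries overlapped both other groups and the Hb+NTR1 libraries lay just below control, with edgeR adjusted p = 0.974 for Hb against control, 0.429 for Hb+NTR1 against Hb and 0.486 for Hb+NTR1 against control. Egln1, the main oxygen-sensing prolyl hydroxylase, was at 65.1 ± 1.11, 68.1 ± 6.35 and 67.6 ± 0.472 CPM (edgeR adjusted p = 0.904 against Hb). Egln3, a hydroxylase that HIF induces strongly in many cells, had 0 counts in the 3 control libraries, 1, 0 and 0 in Hb and 4, 3 and 7 in Hb+NTR1, too few to be tested.

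The hypoxia targets that were higher with the agent were Kdm3a, Car9, Bnip3, Bnip3l and Ddit4. Kdm3a (chr6:71588972-71632990, minus strand, GRCm38), a histone H3 lysine demethylase, had 94.1, 86.6 and 90.7 CPM in control, 91.3, 88.1 and 108 CPM in Hb and 177, 167 and 174 CPM in Hb+NTR1. All Hb+NTR1 libraries lay above the rest, 1.80-fold above Hb (log2 fold change 0.85 ± 0.0723, edgeR adjusted p = 4.19e-10). Bnip3l, a mitophagy receptor of the outer mitochondrial membrane, had 63.0, 60.9 and 64.6 CPM in control, 59.3, 65.7 and 72.0 CPM in Hb and 86.8, 85.6 and 95.0 CPM in Hb+NTR1 and was likewise highest in Hb+NTR1 (log2 fold change 0.44 ± 0.0765, edgeR adjusted p = 2.44e-05). Its relative Bnip3 went from 19.9 ± 2.76 to 27.5 ± 2.27 CPM (edgeR adjusted p = 0.000973). An antisense gene covers 22.3% of the exons of Bnip3, and without a stated strand setting its reads cannot be told apart. Other genes on the opposite strand cover 11.5% of the exons of Gpi1 and 9.29% of those of Car9. On the same strand, other genes cover 15.3% of the exons of Pkm and 10.2% of those of Pfkm. Car9, the carbonic anhydrase at the cell surface that acidifies the outside, was scarce, with 4.34, 2.66 and 3.15 CPM in control, 3.74, 4.17 and 4.15 CPM in Hb and 8.77, 5.06 and 6.54 CPM in Hb+NTR1. Its rise (log2 fold change 0.76 ± 0.215, edgeR adjusted p = 0.00382) was not called without Hb+NTR1 replicate 1 (adjusted p = 0.0557). Ddit4, an inhibitor of mTORC1 under stress, overlapped between the groups, with 71.6, 69.5 and 79.1 CPM in Hb and 73.5, 99.4 and 89.0 in Hb+NTR1 (log2 fold change 0.25 ± 0.0884, edgeR adjusted p = 0.0171). Its call ended without Hb replicate 1 (adjusted p = 0.0557), Hb+NTR1 replicate 2 (0.169) or Hb+NTR1 replicate 3 (0.0566), and without Hb+NTR1 replicate 2 its log2 fold change was 0.15.

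Lower with the agent were Adm, Ndrg1, Vegfa and Mxi1. Vegfa, the growth factor for blood vessels, had 87.7, 91.5 and 90.5 CPM in control, 104, 91.4 and 94.0 CPM in Hb and 63.7, 67.5 and 61.9 CPM in Hb+NTR1. The Hb+NTR1 libraries lay below all others, 1.499-fold below Hb (log2 fold change -0.58 ± 0.0704, edgeR adjusted p = 1.4e-07). Ndrg1, a stress-responsive cytoplasmic protein gene, had 82.4, 91.9 and 87.1 CPM in control, 88.0, 96.9 and 85.3 CPM in Hb and 51.3, 58.4 and 56.6 CPM in Hb+NTR1, with the same separation (log2 fold change -0.70 ± 0.0756, edgeR adjusted p = 2.39e-08). Adm, which encodes the vasodilator peptide adrenomedullin, had 6.80, 4.92 and 6.02 CPM in control, 4.31, 4.51 and 6.53 CPM in Hb and 2.60, 2.04 and 2.78 CPM in Hb+NTR1, and its Hb+NTR1 libraries were 2.06-fold below Hb (log2 fold change -1.04 ± 0.226, edgeR adjusted p = 0.000337). Mxi1, an antagonist of MYC, was at 30.6 ± 3.06 CPM in Hb and 25.8 ± 0.731 in Hb+NTR1 (edgeR adjusted p = 0.0379). The call of Mxi1 ended with library totals alone (adjusted p = 0.0609), by DESeq2 (0.097), without Hb replicate 2 or 3 (0.165 and 0.0552) and without Hb+NTR1 replicate 1, 2 or 3 (0.0593, 0.0903 and 0.106). Ankrd37, an ankyrin repeat gene, had 0.139 to 1.78 CPM over the 9 libraries. It was not called (edgeR adjusted p = 0.0599 against Hb), but passed as lower without Hb replicate 2 or Hb+NTR1 replicate 2 (0.0239 and 0.0253), and exons of Lrp2bp on the other strand cover 22.7% of its own. In Hb against control none of the 11 tested hypoxia targets was called by edgeR or DESeq2, 1 had an unadjusted p under 0.05, and log2 fold changes ran from -0.22 to 0.24.

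**Figure D4:**
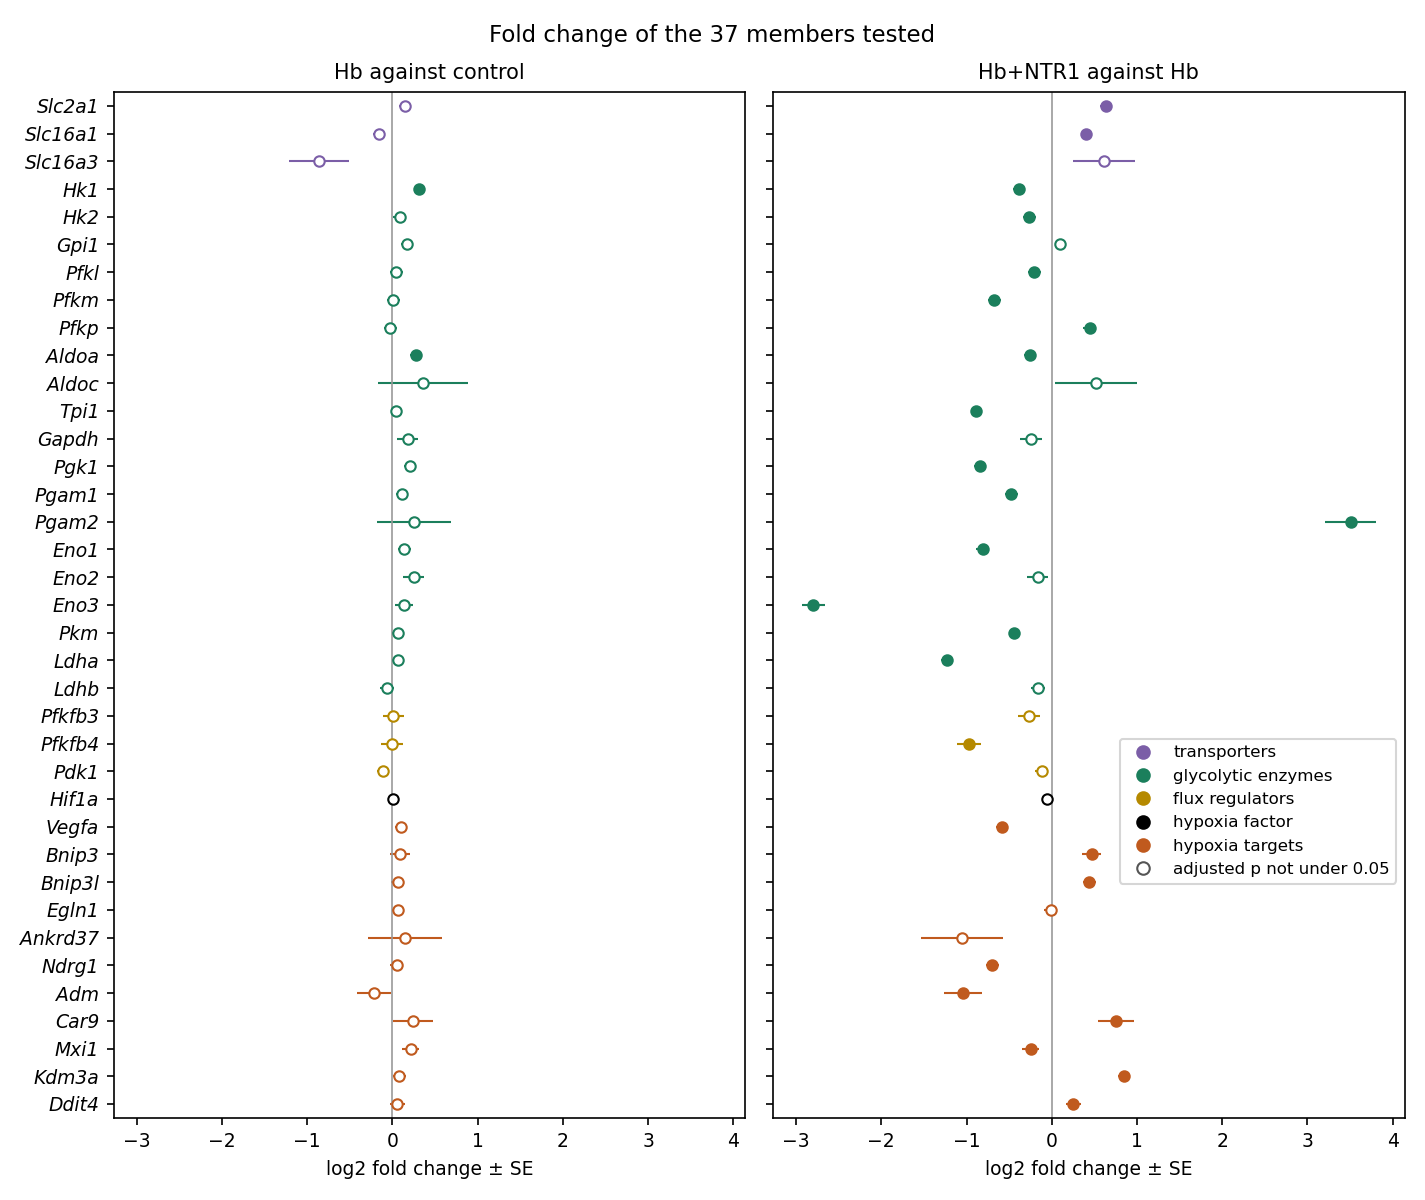
Log2 fold change ± SE (x axis) of the 37 tested members, coloured by class, for Hb against control (left) and Hb+NTR1 against Hb (right), with filled points for an adjusted p under 0.05. On the left 2 points are filled, Hk1 and Aldoa, and on the right 26 are, from -2.80 for Eno3 to 3.51 for Pgam2. Both panels use the Hb libraries, so an opposite sign in them is no independent result.

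Upstream sequences are shown for the members of both classes with the largest called changes with the agent, 3 higher and 3 lower, to let a reader compare genes that moved in opposite directions. Where they lie outside annotated exons, they are the 250 bases before the transcription start in RefSeq on GRCm38.p6, read 5′ to 3′ on the strand of the gene. For Kdm3a and Car9, whose windows overlap an exon of another annotated transcript start by 73 and 60 bases, only the 30 bases around the match are shown. Capitals mark ACGTG and GCGTG on either strand (CACGT and CACGC when reversed), the core of the HIF element, and a CACGTG palindrome counts as 2 overlapping matches.
Pgam2: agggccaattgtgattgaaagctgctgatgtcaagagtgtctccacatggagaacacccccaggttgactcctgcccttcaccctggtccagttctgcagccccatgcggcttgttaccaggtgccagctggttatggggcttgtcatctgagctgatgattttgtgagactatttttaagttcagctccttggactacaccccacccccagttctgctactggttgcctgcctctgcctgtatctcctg
Kdm3a: ccgggaggctgtGCGTGtcttgtgagagag
Car9: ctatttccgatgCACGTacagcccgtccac
Eno3: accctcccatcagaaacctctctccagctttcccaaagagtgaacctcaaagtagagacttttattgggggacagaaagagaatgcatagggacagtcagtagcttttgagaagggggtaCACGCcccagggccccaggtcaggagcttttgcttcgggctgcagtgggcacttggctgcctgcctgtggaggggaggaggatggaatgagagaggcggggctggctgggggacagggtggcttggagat
Ldha: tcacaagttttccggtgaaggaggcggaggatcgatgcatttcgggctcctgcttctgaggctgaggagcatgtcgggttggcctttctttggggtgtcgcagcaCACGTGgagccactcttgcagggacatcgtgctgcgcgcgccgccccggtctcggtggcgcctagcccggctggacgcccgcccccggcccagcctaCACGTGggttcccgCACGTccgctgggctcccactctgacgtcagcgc
Adm: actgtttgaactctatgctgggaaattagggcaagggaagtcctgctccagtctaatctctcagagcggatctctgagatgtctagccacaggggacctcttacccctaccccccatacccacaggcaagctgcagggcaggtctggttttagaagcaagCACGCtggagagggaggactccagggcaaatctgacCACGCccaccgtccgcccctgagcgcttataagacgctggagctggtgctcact

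The stretches shown lie at chr11:5803797-5804046 (Pgam2, minus strand), chr6:71632927-71632956 (Kdm3a, minus strand) and chr4:43506996-43507025 (Car9, plus strand) for the higher genes, and at chr11:70656926-70657175 (Eno3), chr7:46845554-46845803 (Ldha) and chr7:110627407-110627656 (Adm) for the lower genes, all on the plus strand. In the 250 bases Pgam2 had 0 matches, Kdm3a, Car9 and Eno3 1 each, Adm 2 and Ldha 5. Matches therefore occurred both upstream of genes that rose and upstream of genes that fell. In the window from 250 bases before to 50 after the start, of 36 members with an entry 27 held a match (75.0%), 12 of 19 glycolytic enzymes (63.2%) and 8 of 10 hypoxia targets (80.0%). Over the 27025 genes of the table the share was 43.8% (the entry listed at the top for each gene was used). Bnip3l and Ndrg1 had no entry. A match describes letters in this window and is not a site of binding.

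Other genes of both pathways were set beside the members. Of 44 further glycolysis and pyruvate genes 29 were tested, and in Hb+NTR1 against Hb 7 were higher and 8 lower, at a median log2 fold change of 0.078. Eno1b was among the lower and may not be independent of Eno1. That was 51.7% called, beside 62.3% of all genes tested. Pdp1, the phosphatase that activates pyruvate dehydrogenase, was at 17.5 ± 1.95 CPM in Hb and 35.6 ± 1.80 in Hb+NTR1 (log2 fold change 1.03 ± 0.106, edgeR adjusted p = 1.17e-08). Pcx, pyruvate carboxylase, rose from 50.7 ± 4.64 to 70.8 ± 4.13 CPM and Mpc1, a subunit of the mitochondrial pyruvate carrier, from 6.52 ± 0.615 to 9.08 ± 0.645 CPM (edgeR adjusted p = 4.22e-05 and 0.00915). Slc2a8, a further glucose transporter gene, rose from 9.14 ± 0.817 to 14.9 ± 2.13 CPM (edgeR adjusted p = 0.000108). The named falls were in the transporter genes Slc2a10, from 12.7 ± 3.73 to 2.29 ± 0.357 CPM, and Slc2a6, in Pck2, the mitochondrial phosphoenolpyruvate carboxykinase, from 196 ± 10.5 to 42.9 ± 1.93 CPM, and in Pfkfb1 (edgeR adjusted p = 3.24e-10, 2.1e-05, 6.32e-18 and 1.03e-05). In Hb against control 3 of these 29 were higher and 1 lower, 13.8% called beside 3.65% of all genes tested. Hkdc1, a hexokinase domain gene named after its values were seen, rose from 2.22 ± 0.0826 to 4.96 ± 0.747 CPM and was back at 2.08 ± 0.308 with the agent (edgeR adjusted p = 0.00283 and 5.21e-05). Pcx and Pdhb, a pyruvate dehydrogenase subunit, were higher and Txnip, an inhibitor of glucose uptake, was lower (edgeR adjusted p = 0.0409, 0.0456 and 0.0193). Each of these last 3 calls ended without control replicate 3, at adjusted p = 0.161, 0.102 and 0.195. Other single libraries also ended them: control replicate 1 (0.236), Hb replicate 1 (0.154) and Hb+NTR1 replicates 2 and 3 (0.0608 and 0.065) for Pcx, and Hb replicate 1 (0.0896) for Txnip. For Pdhb they were control replicates 1 and 2 (0.215 and 0.178), Hb replicate 2 (0.0652) and Hb+NTR1 replicates 1 to 3 (0.0717, 0.0668 and 0.0758). With only the 6 libraries of the comparison they missed as well (0.0852, 0.105 and 0.0522), as did Pdhb with no filter on low counts (0.0753).

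Of 51 further hypoxia genes 36 were tested, and in Hb+NTR1 against Hb 15 were higher and 15 lower, at a median of 0.01. That was 83.3% called, beside 62.3% of all genes tested. Among the higher was Ier3, a stress-response gene, from 46.2 ± 3.31 to 157 ± 19.6 CPM. Bhlhe40, a transcriptional repressor, rose from 49.7 ± 3.12 to 107 ± 4.66 CPM and Plod2, a collagen lysyl hydroxylase, from 54.8 ± 2.60 to 110.0 ± 6.12 CPM (edgeR adjusted p = 2.6e-08, 3.99e-12 and 1.6e-11 for these 3). Lox, lysyl oxidase, fell from 2199 ± 156 to 91.0 ± 11.9 CPM, beside the fall of fibroblast marker genes given above (log2 fold change -4.59 ± 0.0894, edgeR adjusted p = 1e-21). Angptl4, a lipoprotein lipase inhibitor, fell from 14.5 ± 0.811 to 3.69 ± 1.19 CPM, Ak4, a mitochondrial adenylate kinase, from 120.2 ± 8.89 to 36.2 ± 3.09 CPM, and Arnt2, a partner of HIF proteins, from 6.02 ± 0.88 to 2.87 ± 0.472 CPM (edgeR adjusted p = 3.92e-10, 4.1e-15 and 7.72e-05). Like the members, the wider hypoxia list moved both ways, as did all genes tested, of which 30.7% were higher and 31.6% lower. In Hb against control 2 of the 36 tested were higher and 2 lower, 11.1% called beside 3.65% of all genes tested. Gbe1, the glycogen branching enzyme, and Ak4 were higher there and Lox was lower (edgeR adjusted p = 0.0216, 0.027 and 0.000591). The call of Gbe1 ended without control replicate 1 or 3 or Hb replicate 3 (adjusted p = 0.0747, 0.148 and 0.0838), and that of Ak4 without control replicate 1, 2 or 3 or Hb replicate 3 (0.0796, 0.16, 0.102 and 0.0681).

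The Hb+NTR1 libraries were also set against control, a comparison that shares its libraries with both others. Here 63.6% of all genes were called, 31.4% higher and 32.2% lower. Of the 19 glycolytic enzymes 3 were higher (Gpi1, Pfkp and Pgam2) and 9 lower, and of the 11 tested hypoxia targets 5 were higher and 3 lower, with medians of -0.18 and 0.053. The 3 lower targets were Vegfa, Ndrg1 and Adm. Hk1 and Aldoa, which were higher in Hb than in control, did not pass between Hb+NTR1 and control, at log2 fold changes of -0.073 ± 0.0639 and 0.016 ± 0.068 (edgeR adjusted p = 0.325 and 0.853). Hk2 and Pfkl missed the threshold (adjusted p = 0.0583 and 0.0758) and passed as lower without control replicate 3 (0.0311 and 0.0247), without Hb replicate 2 (0.025 and 0.0329) and with only the 6 libraries compared (0.0164 and 0.0377), and Hk2 also without Hb replicate 1 (0.0422). Ldhb was lower (log2 fold change -0.22 ± 0.0816, edgeR adjusted p = 0.0201), a call that ended with library totals alone (adjusted p = 0.0903), without control replicate 2 or 3 (0.0632 and 0.0819) and without Hb+NTR1 replicate 1 or 3 (0.0628 and 0.108). Ddit4 was higher (log2 fold change 0.30 ± 0.0883, edgeR adjusted p = 0.00443) but not without Hb+NTR1 replicate 2 (adjusted p = 0.0607), and Ankrd37 passed as lower only without that same library (0.0415).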

How the data were processed

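Poly(A)-selected RNA was sequenced on an Illumina NovaSeq. Per the submitters' processing notes the build was GRCm38, with HTSeq 0.10.0, HISAT2 2.1.0 and bcl2fastq 2.19.1.403 as tools. No label states the strand setting. The authors deposited raw counts per gene symbol for 9 libraries, not normalised. Their deposited table of Hb+NTR1 against control gives log2 fold changes and p-values from a test that is not named, for 691 genes. Columns beginning in N were taken as Hb+NTR1, since that table holds only N and C columns. After 98 exact repeats (Aldoa among them) were removed, 54134 entries remained. R 4.3.3 and edgeR 4.0.16 were used: filterByExpr with a minimum count of 10 (13810 genes), TMM factors, and 1 robust quasi-likelihood fit of all 9 libraries by group, two-sided, with Benjamini-Hochberg adjustment. DESeq2 1.42.0 was an alternative. Beforehand the fit was run on simulated counts for Hb against control only, drawn with the spread that the fit itself had estimated. No result here rests on that run. Lengths came from GENCODE M21 (38 members matched), promoters from RefSeq (36 matched). The members and lists were chosen with earlier results of these data known. All members were named, with values in every library for those the results turn on, and up to 4 called genes per direction of each further list with at least 5 CPM, of which 1 is not reported here. No pairing by replicate number was seen: deviations of same-numbered libraries correlated at -0.0488 to 0.0953, beside -0.116 to 0.14 for differently numbered ones. With 3 libraries a group this cannot exclude a pairing.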

Additional observations from a re-analysis of the deposited data

How the results depend on the processing

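Of the calls of members, 22 of 26 in Hb+NTR1 against Hb, 21 of 24 in Hb+NTR1 against control and 1 of 2 in Hb against control held under all 17 alternatives, and none of these called members changed direction. Leaving out 1 library moved the count of genes called in Hb against control from 504 to between 285 and 1125 (the largest value came from leaving out Hb replicate 2, and control replicates 1, 2 and 3 gave 315, 285 and 286), the count of glycolytic enzymes and of all members higher there from 2 to between 1 and 2, and the count of members lower there from 0 to between 0 and 1. No other count of members or classes moved by over 1.5 times. With the replicate number as a block 645, 8706 and 8898 genes were called in Hb against control, Hb+NTR1 against Hb and Hb+NTR1 against control, with 2, 26 and 24 members, as without the block. Estimates near 0 of uncalled members changed sign. With library totals alone Egln1 in Hb+NTR1 against Hb had a log2 fold change of 0.014 and Hif1a in Hb+NTR1 against control 0.015. With 1 library left out, Hif1a in Hb against control ranged from -0.017 to 0.034, Egln1 there from -0.014 to 0.12 and Egln1 in Hb+NTR1 against Hb from -0.066 to 0.064. In an alternative chosen after seeing the data, each member was left out of its class sum in turn. Without Kdm3a the hypoxia target sum in Hb+NTR1 minus that in Hb was -27.3 CPM in place of 49.5 CPM, and no other member turned the direction of its class. Scaling by library totals moved the median log2 fold change of all genes by at most 0.063. Depth limits Egln3, Aldoc, Pgam2 in control and Hb, Slc16a3 and Ankrd37, which had few counts.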
